A study of Mus musculus with 2 samples.

Results

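The genes of the p38 and JNK arms of MAP kinase signalling were examined in 4T1 cells, a murine breast cancer line derived from a mammary carcinoma, after treatment with astragalin (AS), a plant flavonoid. A list of 10 genes was taken by symbol from the deposited table of 14197 genes, and 9 of them had a row. Map2k6 had no row under that symbol, so its expression was not analysed here. One group was wild-type 4T1 cells given 20 μM AS for 24 h and the other was wild-type 4T1 cells given the vehicle, with 1 RNA-seq library in each, so none of the differences below has a replicate check and no p-value is given. The vehicle is not named in the labels, and both libraries come from a single cell line, so anything else that set the dishes apart cannot be told apart from AS.

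The values are RPKM, reads per kilobase of summed exon length after division by library size. That length counts all annotated exons of a gene, whichever isoforms are expressed. Comparisons of different genes within a library depend on it. Whole reads were recovered from the RPKM values for all 9 genes, with library sizes of 44909682 reads for AS and 50820727 reads for the vehicle. Differences are log2 ratios of AS over vehicle with 0.1 RPKM added to both values. The 95% Clopper-Pearson intervals beside them come from the reads alone, with nothing added. They cover counting error only, since 1 library per condition gives no replicate error. Reads without molecular identifiers are not independent molecules, so the intervals may be too narrow even for counting error. Over all genes of the table the median log2 ratio was 0.07, and 60.9% of the genes were above 0. The 6 epithelial markers checked were all in the table, ranging from 12.7 to 707 RPKM under AS and from 24.7 to 902 RPKM under vehicle. They summed to 1658 RPKM under AS and 2133 RPKM under vehicle, and 5 of the 6 were lower with AS, with log2 ratios past 1.5-fold for the keratin genes Krt14 (-0.96) and Krt19 (-0.73). Of 10 markers of other cell types, 3 had a row, summing to 24.5 RPKM under AS and 28.6 RPKM under vehicle, nearly all of it from Cd68. Ptprc, which marks leukocytes, had 0.116 RPKM under AS and 0.114 RPKM under vehicle. The part of these marker differences in the results below was not tested. In bulk RNA, fewer cells that express a gene and less of its RNA per cell cannot be told apart.

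p38 and JNK are stress-activated protein kinases at the bottom of a relay of kinases. A MAP3 kinase such as ASK1 phosphorylates a MAP2 kinase, which phosphorylates p38 or JNK, and the phosphorylated kinase acts on downstream kinases and transcription factors until a dual-specificity phosphatase switches it off. Under endoplasmic reticulum (ER) stress, IRE1 can recruit TRAF2 and ASK1 and so reach JNK and p38, and p38 phosphorylates CHOP, the product of Ddit3. The activity of these kinases is set mainly by phosphorylation, which RNA-seq does not measure, so the values below are of their transcripts alone.

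None of the 9 genes, the phosphatase gene Dusp1 among them, was past 1.5-fold in either direction, where 5.57% of all genes were. None was past 2-fold, where 0.972% were. With shares this small over all genes, such counts among 9 genes do not set the members apart from the rest. The log2 ratio was above 0 for 8 of the 9 genes, where this held for 60.9% of all genes. The median of the 9 was 0.11 beside 0.07 for all genes. Map3k5, the gene of ASK1, lay furthest from 0, at 0.37, and Dusp1 alone was below 0, at -0.25. The counting interval was above 0 for 6 genes, where this held for 38.2% of the 12714 genes with recovered reads, and it was below 0 for no member, where this held for 20% of those genes. With TMM scaling, which lowers every log2 ratio by 0.07, the interval stayed above 0 for Map3k5, Mapk9 and Map2k4 only, where 27.8% of the genes with recovered reads had an interval above 0. The same 3 members were left with median-of-ratios scaling (27.8% of the genes with recovered reads) and with upper-quartile scaling (27.1%).

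**Figure D1:**
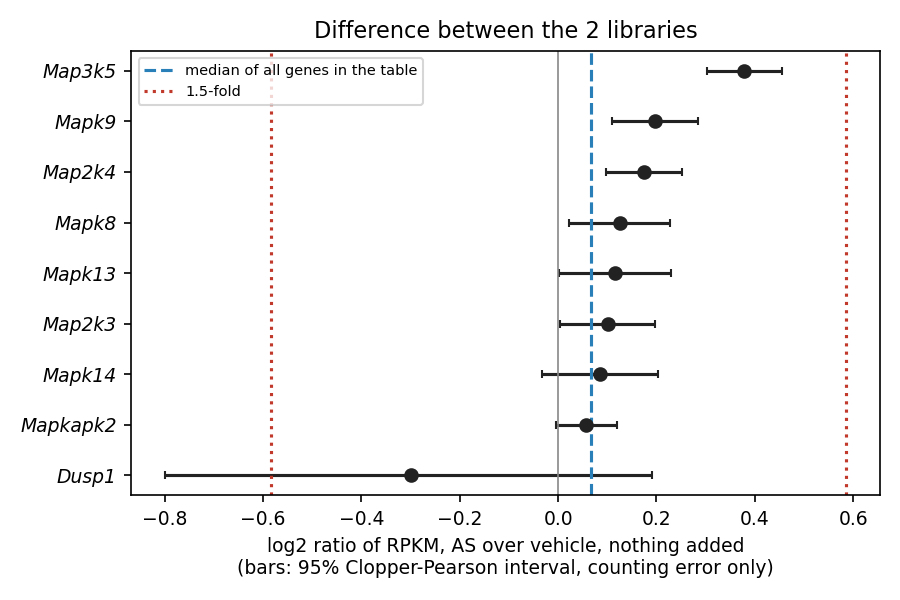
The log2 ratio of RPKM, AS over vehicle with nothing added, is drawn for each of the 9 genes, with bars for the 95% Clopper-Pearson interval of the reads and 1 library per condition. The points lie inside the dotted 1.5-fold lines and most sit close to the dashed median of all genes, with Map3k5 to the right and Dusp1, which has few reads, to the left.

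The relay begins with Map3k5 (chr10:19934472-20142753 of GRCm38, plus strand), whose protein product ASK1 is a redox-sensitive kinase held inactive by thioredoxin. It reached 10.9 RPKM under AS (2981 reads) and 8.39 RPKM under vehicle (2595 reads). The ratio of the RPKM values was 1.30, and the log2 ratio was 0.37 with an interval from 0.30 to 0.45. By the size of its log2 ratio Map3k5 stood at percentile 83.2 of all genes, so many genes outside the pathway differed by more. Txn1, the gene of thioredoxin, had 28.2 RPKM under AS and 34.2 RPKM under vehicle, a log2 ratio of -0.28; it was chosen after its values were seen.

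At the MAP2 kinase layer, MKK3 acts on p38, while MKK4 acts on JNK and also on p38. Map2k4 (chr11:65688243-65788297, minus strand), the gene of MKK4, had 12.7 RPKM under AS (2669 reads) and 11.3 RPKM under vehicle (2676 reads). Its log2 ratio was 0.17, with an interval from 0.10 to 0.25. Map2k3 (chr11:60932033-60952811, plus strand), the gene of MKK3, had 11.6 RPKM under AS (1730 reads) and 10.8 RPKM under vehicle (1826 reads). The log2 ratio of Map2k3 was 0.10, and its interval, from 0.0048 to 0.20, reached almost to 0. Map2k7, the gene of the JNK-specific kinase MKK7, was the most abundant of these MAP2 kinase transcripts, with 21.05 RPKM under AS and 20.1 RPKM under vehicle. Its log2 ratio of 0.07 was close to the median of all genes, and turned negative under upper-quartile scaling, which subtracts 0.0733. Map2k4 made up 37.7% of the summed RPKM of Map2k4 and Map2k7 with AS and 36% with the vehicle.

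Of the p38 kinases, Mapk14 encodes p38α, the broadly expressed form, and Mapk13 encodes p38δ, which is expressed in fewer tissues. The genes lie near each other on chromosome 17, on the plus strand and 20890 bases apart. Mapk14 (chr17:28691329-28748406) had 5.75 RPKM under AS (1130 reads) and 5.42 RPKM under vehicle (1205 reads). Its log2 ratio was 0.08, and the interval, from -0.03 to 0.20, held 0. Mapk13 (chr17:28769297-28780233) had 8.70 RPKM under AS (1231 reads) and 8.03 RPKM under vehicle (1286 reads). The log2 ratio of Mapk13 was 0.11, with an interval from 0.0014 to 0.23. Mapk13 thus had the higher RPKM of the pair in both libraries, over 3150 exon bases against 4376 for Mapk14. Mapk14 held 39.8% of their summed RPKM with AS and 40.3% with the vehicle.

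The other p38 genes complete the family. Mapk11, the gene of p38β (chr15:89142486-89149628, minus strand), had 4.50 RPKM under AS (584 reads) and 6.08 RPKM under vehicle (892 reads). It had a log2 ratio of -0.42, with an interval from -0.59 to -0.28, and stood at percentile 87.3 by size. Mapk12, the gene of p38γ, lies 1782 bases from Mapk11 on the same strand, and had 3.75 RPKM under AS and 3.87 RPKM under vehicle. Its log2 ratio was -0.04, with an interval from -0.20 to 0.11. Mapk11 went from 26.0% of the summed p38 RPKM with the vehicle to 19.8% with AS, while Mapk13 went from 34.3% to 38.3% and Mapk14 from 23.2% to 25.3%. Mapk12 stood at 16.5% in both. Shares of a sum are tied to each other, and the log2 ratios of Mapk13 (0.11) and Mapk14 (0.08) were near the median of all genes (0.07). The 4 genes summed to 22.7 RPKM under AS and 23.4 RPKM under vehicle.

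**Figure D2:**
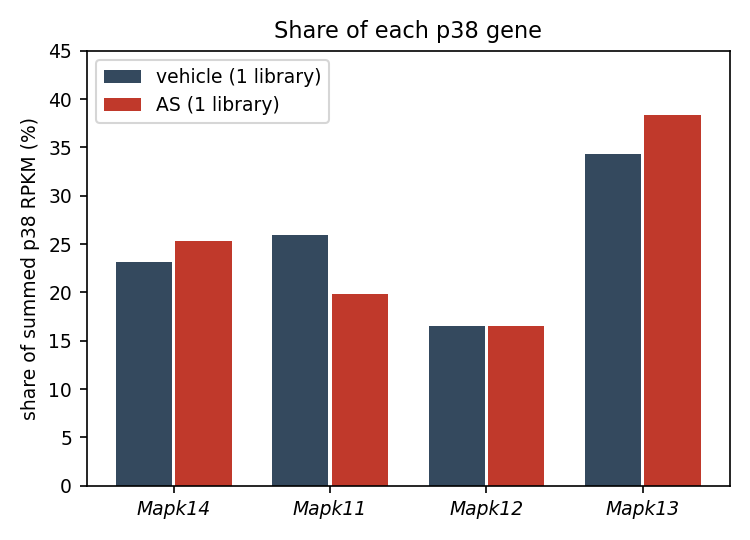
Bars give the share of each of the 4 p38 genes in their summed RPKM, in percent, for the vehicle and the AS library (1 library each, no error bars). Mapk13 has the tallest bar in both libraries, and Mapk11 is second with the vehicle (26.0%) and the third tallest with AS (19.8%).

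Of the JNK kinases, Mapk8 encodes JNK1 and Mapk9 encodes JNK2, both broadly expressed. Mapk9 (chr11:49846751-49886421, plus strand) had 7.14 RPKM under AS (2176 reads) and 6.23 RPKM under vehicle (2148 reads). The log2 ratio of Mapk9 was 0.19, with an interval from 0.11 to 0.28. With nothing added, its RPKM was 14.6% higher in the AS library. Mapk8 (chr14:33377898-33447158, minus strand) had 2.95 RPKM under AS (1518 reads) and 2.71 RPKM under vehicle (1575 reads). Its log2 ratio was 0.12, with an interval from 0.02 to 0.23. Mapk8 held 29.3% of the summed RPKM of the pair with AS and 30.3% with the vehicle, so Mapk9 had the higher RPKM in both. The exon lengths behind these values differ, at 11444 bases for Mapk8 and 6784 for Mapk9. Mapk10, the JNK3 gene known from neurons, had no row and was not analysed here.

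Downstream of p38, Mapkapk2 (chr1:131053700-131097826, minus strand) encodes MK2, a kinase that controls the stability of mRNAs with AU-rich elements. It was the most abundant of the 9 transcripts, with 28.7 RPKM under AS and 27.6 RPKM under vehicle, from 3917 and 4259 reads. The log2 ratio was 0.06, with an interval from -0.0053 to 0.12 that held 0, and it turned to -0.01 with TMM scaling. Its closest relative, Mapkapk3, was far lower, with 1.51 RPKM under AS and 1.33 RPKM under vehicle, and was chosen after its values were seen.

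Dusp1 encodes MKP-1, a nuclear phosphatase that inactivates p38 and JNK and is itself an immediate early gene of stress. It was the least abundant of the 9 transcripts by a wide margin (chr17:26505590-26562128, minus strand), with 0.410 RPKM under AS and 0.505 RPKM under vehicle. These values rest on 61 and 85 reads, counted over an annotated gene that reaches far upstream of the RefSeq start. The log2 ratio of -0.25 had an interval from -0.80 to 0.19, so a difference was not detectable at this depth. At percentile 6.68 of all genes in the vehicle library, Dusp1 stood far below the kinases, which ranged from percentile 34.9 for Mapk8 to 86.1 for Mapkapk2.

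**Figure D3:**
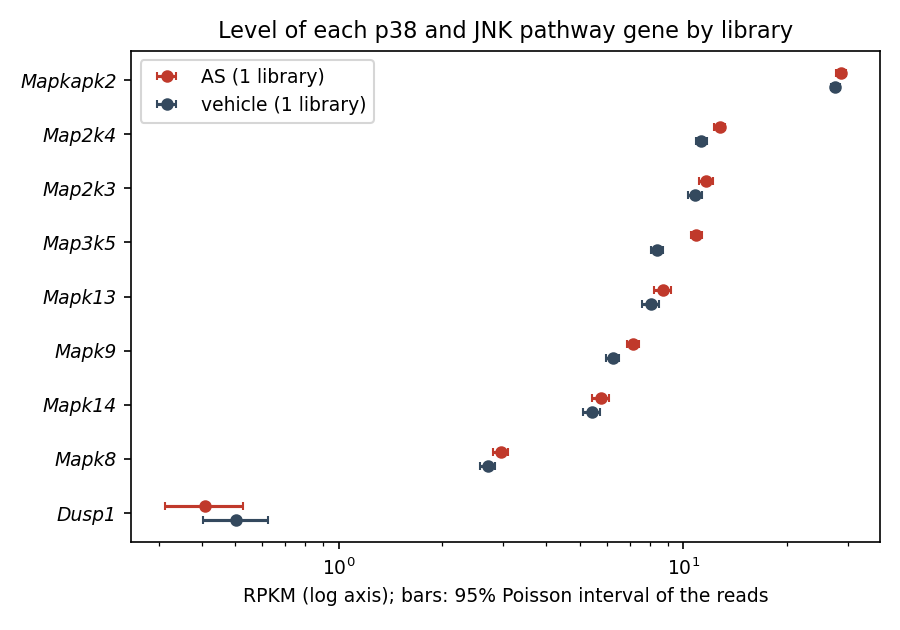
RPKM on a log axis is drawn for each of the 9 genes in the AS library and the vehicle library, 1 each, with bars for the 95% Poisson interval of the reads. Both libraries run from Dusp1, under 1 RPKM, to Mapkapk2, at 28.7 and 27.6 RPKM, and the AS and vehicle bars are apart for Map3k5, Mapk9 and Map2k4.

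The order of the levels was the same in both libraries. From high to low RPKM it ran Mapkapk2, Map2k4, Map2k3, Map3k5, Mapk13, Mapk9, Mapk14, Mapk8 and Dusp1. The Poisson intervals of neighbours overlapped for Map2k3 and Map3k5 in the AS library, and for Map2k4 and Map2k3 and for Map3k5 and Mapk13 in the vehicle library. All other neighbours had intervals apart, given the annotated exon lengths used.

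Promoter letters are shown for the genes whose windows held the most matches to the cAMP response element, which binds CREB and ATF family factors, since Dusp1 is a known target of such factors. The windows came from RefSeq (GRCm38.p6), 250 bases before to 50 after each start, and 15 windows matched the 10 genes. The full element TGACGTCA was in the window of Dusp1 alone among them, and in 1.79% of all 32851 windows. Its half-site TGACG, which the full element contains on both strands, was in 5 of the 15 windows and in 20.8% of all. The AP-1 element TGANTCA was in 1 of the 15, a window of Map2k6, and in 7.81% of all, and the ATF4-type core TGATGNAA was in 0 of the 15 and in 3.97% of all. All were searched on both strands. The stretches below are on the minus strand of the genome, with matches in capitals, and all lie within the 250 bases before the start.
Dusp1, chr17:26508593-26508672: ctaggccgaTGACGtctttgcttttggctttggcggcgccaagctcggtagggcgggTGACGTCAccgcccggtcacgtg
Map2k4, chr11:65788370-65788419: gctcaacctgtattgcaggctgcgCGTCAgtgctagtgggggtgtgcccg
Mapk8, chr14:33447159-33447218: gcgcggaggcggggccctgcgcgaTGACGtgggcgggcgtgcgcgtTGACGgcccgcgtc
Dusp1, with the full element, had the lowest RPKM of the 9 genes in both libraries. A second match in Map2k4 spans its start and is not shown. A match describes these letters only.

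The wider pathway was then described from lists set by role. Without the members, and without the ERK genes and the IRE1 and CHOP genes given further on, these held 70 distinct genes, of which 64 had a row. Their median log2 ratio was 0.09, 3 were past 1.5-fold higher with AS and 1 was past 1.5-fold lower, where 3.56% and 2.01% of all genes were, and none was past 2-fold. Among 15 other MAP3 kinases none was past 1.5-fold, and their median of 0.07 was close to that of all genes. Taok3 (0.38), chosen after its values were seen, and Map3k5 had nearly the same log2 ratio.

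Of 15 adaptors and scaffolds, Gadd45a was past 1.5-fold. Gadd45a, a stress-inducible activator of the MAP3 kinase MEKK4, had 73.2 RPKM under AS and 44.3 RPKM under vehicle, a log2 ratio of 0.72. Its relatives had log2 ratios of -0.02 for Gadd45b and 0.27 for Gadd45g, both chosen after their values were seen. Of 13 p38 effectors, with a median log2 ratio of 0.14, Mknk1 was past 1.5-fold. Mknk1 encodes MNK1, a kinase of the translation factor eIF4E that both p38 and ERK activate, and had 5.67 RPKM under AS and 3.42 RPKM under vehicle, a log2 ratio of 0.71. None of the 8 JNK effectors was past 1.5-fold. Their median log2 ratio was 0.16 beside 0.07 for all genes. Above 0 were 5 of the 8, close to the share of all genes above 0 (60.9%). The log2 ratios of the list ran from -0.32 to 0.32. Jun, chosen after its values were seen, was among those below 0 but not the lowest, with 7.22 RPKM under AS and 8.14 RPKM under vehicle.

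The 12 phosphatases with a row, Dusp1 among them, had 1 gene past 1.5-fold in each direction. Dusp4, which encodes the nuclear phosphatase MKP-2, had 39.3 RPKM under AS and 25.5 RPKM under vehicle, a log2 ratio of 0.63. This was 0.56 with TMM scaling and 0.55 with upper-quartile scaling, within 1.5-fold. Dusp8, which encodes a phosphatase of JNK and p38, had 0.201 RPKM under AS (44 reads) and 0.360 RPKM under vehicle (89 reads), and a log2 ratio of -0.61, which was -0.18 with 1 RPKM added. It was below the 1 RPKM set for genes to be named and was chosen after its values were seen. Dusp10, the gene of MKP-5, also chosen in that way, lay just inside the 1.5-fold limit with 0.1 RPKM added, at -0.57, and just past it with nothing added (-0.60) and with TMM scaling (-0.64). The median of the phosphatases was 0.03, and turned to -0.04 with TMM scaling.

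The ERK kinases are the third branch of the MAP kinases. Mapk3, the gene of ERK1, had a log2 ratio of -0.0098. Those of Map2k1 and Map2k2, the genes of the activators MEK1 and MEK2, were -0.0062 and -0.09. The 11 genes of the ERK and ERK5 list had log2 ratios from -0.32 to 0.42. None was past 1.5-fold, where 5.57% of all genes were.

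Of the 4 genes listed for the IRE1 to ASK1 link and CHOP, Ern1 and Ddit3 differed by more than any member. Ern1, the gene of IRE1, had 6.61 RPKM under AS and 3.12 RPKM under vehicle, a log2 ratio of 1.06, which was 0.99 under each of the 3 other scalings and 0.89 with 1 RPKM added and so no longer past 2-fold. Ddit3 had 101 RPKM under AS and 31.5 RPKM under vehicle, a log2 ratio of 1.68. Reads were not recovered for Ddit3, which has more than 1 entry in the annotation. Traf2, the adaptor between IRE1 and ASK1, was chosen after its values were seen and had 2.99 RPKM under AS and 2.87 RPKM under vehicle, and its log2 ratio of 0.06, which turned negative with TMM scaling, had an interval from -0.09 to 0.21. Of these 4 genes, Ddit3 was past 2-fold under each setting tried and Ern1 was close to 2-fold. Map3k5 was higher by less than 1.5-fold, and for Traf2 no difference was detectable at this depth.

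**Figure D4:**
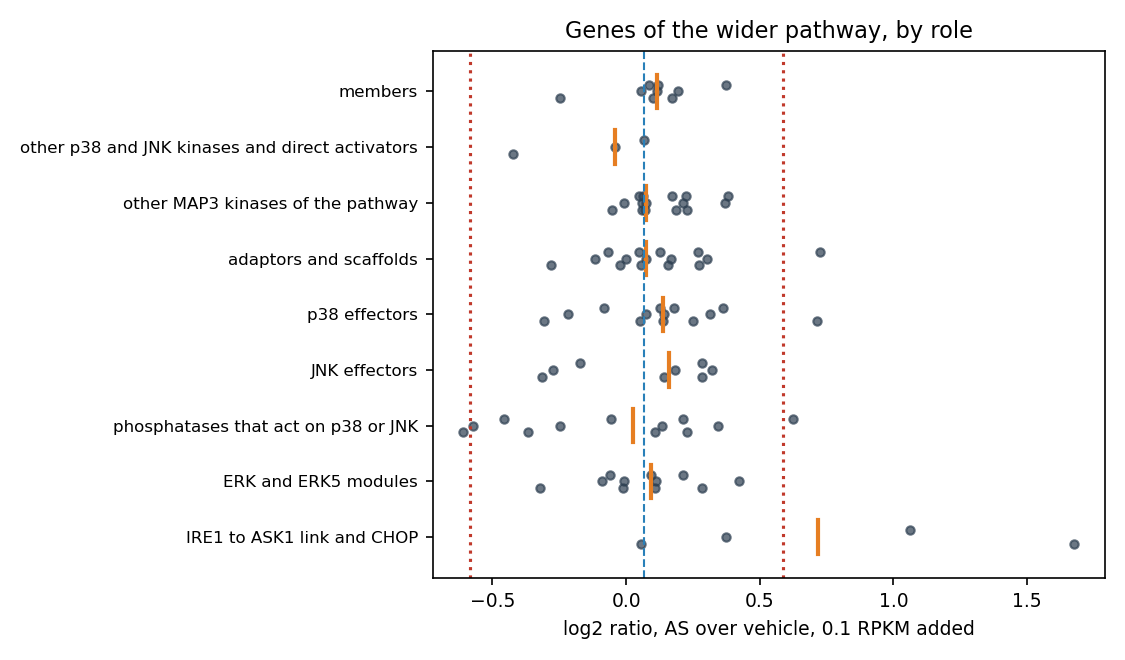
Each point is the log2 ratio of 1 gene, AS over vehicle with 0.1 RPKM added, by list; orange bars are list medians, the dashed line is the median of all genes and the dotted lines are 1.5-fold. Points outside the dotted lines are Gadd45a, Mknk1, Dusp4, Dusp8, Ern1 and Ddit3, and the members all lie between the lines.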

How the data were processed

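RNA-seq was made from 1 AS-treated and 1 vehicle-treated library of 4T1 cells with a stranded mRNA kit. The deposited table gives RPKM per library, as computed by the authors, and also their log2 fold change, mean log2 CPM, p-value and FDR, which were not used. The submitters' processing notes name fastp 0.23.4, STAR 2.5.3a and featureCounts, and the human build GRCh38, while the table lists mouse symbols. Reads were recovered by finding the smallest library size at which RPKM times the GENCODE M21 (GRCm38) exon length was whole, within 0.01 reads in both libraries. This held for 12714 of 13502 genes with a single entry (94.2%), so positions are from that annotation. These genes held 92.1% of the AS library size and 91.6% of the vehicle library size. The lowest mean among them was 31 reads, and no gene was listed at 0. The filter behind the table is not given in the sources used here.

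Log2 ratios were computed with 0.1 RPKM added, in Python 3.11.15 with scipy 1.17.1, and described against folds of 1.5 and 2. The procedure was tested on simulated data. Alternatives were 0 or 1 RPKM added, a mean of at least 1 RPKM, and scaling by TMM, by the median of ratios or by the upper quartile. Exons of the members shared no bases with other genes, apart from 11 bases of Dusp1 with Ergic1 on the opposite strand. The members and lists were chosen with earlier results of these data known. Named were the members, Mapk11, Mapk12, Mapk10, Map2k7, Mapk3, Map2k1, Map2k2, Ddit3, Ern1 and up to 2 highest and 2 lowest genes per list past 1.5-fold with a mean of at least 1 RPKM. One further gene named by this rule is not reported here.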

Additional observations from a re-analysis of the deposited data

How the results depend on the processing

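No member passed 1.5-fold or 2-fold under any of the 6 alternatives tried. The median log2 ratio of the members ranged from 0.04 with upper-quartile scaling to 0.12 with only genes of at least 1 RPKM, a setting that leaves out Dusp1. Mapkapk2 was the only member to change sign, to -0.01 with TMM, -0.01 with median-of-ratios and -0.02 with upper-quartile scaling. The number of members with a counting interval above 0 fell from 6 to 3 under each of these 3 scalings, a comparison chosen after seeing the data; the cause is the shift of every log2 ratio by 0.07. Of the wider pathway genes, chosen for this comparison after seeing the data, the number past 1.5-fold lower went from 1 to 2 with nothing added and under each of the 3 scalings, as Dusp10 passed, and to 0 with 1 RPKM added or a mean of at least 1 RPKM. The number past 1.5-fold higher went from 3 to 2 under each of the 3 scalings, without Dusp4. The share of Mapk14 among the p38 genes did not move with the minimum of 1 RPKM, since all 4 pass it. No paired analysis was possible because each group has 1 library. Depth limits Dusp1 most, and the error between dishes could not be measured.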
